A study of Mus musculus with 12 samples.

Results

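The genes described here are the negative-feedback regulators of the ERK cascade and the immediate-early genes that the cascade switches on. They were chosen by name: 36 gene symbols, of 56691 in the count table, comprising 17 feedback inhibitors (11 dual-specificity phosphatases of the Dusp family, 3 Sprouty genes and 3 Spred genes), 3 ETS factors of the PEA3 subfamily (Etv1, Etv4, Etv5) and 16 immediate-early genes. All 36 symbols were found, and 33 passed the filter on low counts along with 14394 genes in all. Etv1, Fosl1 and Maff were too rare to be tested and are given as counts.

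The cells were MC3T3-E1, a wild-type mouse line of calvarial pre-osteoblasts that lays down mineralised matrix when differentiated. All 4 groups, of 3 libraries each, had the same osteogenic medium with 10% fetal bovine serum, 0.1 µM dexamethasone, ascorbic acid at 50 µg/ml and, as a source of phosphate, 10 mM β-glycerophosphate (BGP), and were differentiated for 28 days. From day 27, for 24 h, the treated cells were given 25-hydroxyvitamin D (25(OH)D, the circulating form of vitamin D) at a labelled dose of 100 µM, alone, with a further 4 mM BGP, or with ZK191784, a synthetic ligand of the vitamin D receptor, also labelled 100 µM; the control group was left untreated. Both doses are high for vitamin D receptor ligands, and whether their unit is right could not be checked from the files. Every treated group thus had 25(OH)D, and no group had BGP or ZK191784 added without it. Single libraries held between 3318723 and 5170980 counts, made by 3′ mRNA sequencing, so that 1 count stood for 0.193 to 0.28 CPM, the counts in a library scaled to a common total. The labels name no separate cultures, so the p-values measure the spread between these libraries, which may be technical, and the groups rest on a single cell line.

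Growth factor receptors pass their signal through Ras, Raf and MEK to the kinases ERK1 and ERK2, which phosphorylate transcription factors at the promoters of immediate-early genes such as Egr1 and Fos. Those genes respond within minutes without new protein synthesis, and their products, among them the Fos and Jun partners of the AP-1 complex, drive a later wave of transcription. The same signal induces its own brakes: Dusp phosphatases that remove phosphate from ERK, JNK or p38, and Sprouty and Spred proteins that hold back Ras and Raf. In osteoblasts the pathway is known for its part in growth and in the phosphorylation of Runx2, the master factor of the lineage.

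Serum response factor (SRF) binds the CArG box, a promoter element of many immediate-early genes, so the upstream bases of the members on which the results turn are shown first. RefSeq promoter windows on GRCm38.p6 were found for 27 of the 36 members; Dusp4, Egr1, Egr3, Etv4, Fosl1, Ier2, Myc, Phlda1 and Spry4 had none in the table used. The 120 bases before the annotated start are printed 5′ to 3′ on the strand of the gene for the 4 members with a window that passed a test below, and for Egr2, which did not, as the other gene with a CArG box. Capitals mark the bases of a CArG box, and the coordinates are Dusp5 chr19:53529025-53529144 (plus strand), Egr2 chr10:67537446-67537565 (plus strand), Ier3 chr17:35821593-35821712 (plus strand), Ier5 chr1:155099637-155099756 (minus strand) and Dusp14 chr11:84068358-84068477 (minus strand).
Dusp5: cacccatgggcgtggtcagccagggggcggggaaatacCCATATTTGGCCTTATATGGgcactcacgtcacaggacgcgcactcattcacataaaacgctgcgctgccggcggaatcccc
Egr2: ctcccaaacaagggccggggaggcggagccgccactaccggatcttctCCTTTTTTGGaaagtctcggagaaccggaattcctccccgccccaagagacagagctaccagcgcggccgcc
Ier3: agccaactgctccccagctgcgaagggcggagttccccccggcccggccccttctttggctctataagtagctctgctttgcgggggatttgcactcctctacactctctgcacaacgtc
Ier5: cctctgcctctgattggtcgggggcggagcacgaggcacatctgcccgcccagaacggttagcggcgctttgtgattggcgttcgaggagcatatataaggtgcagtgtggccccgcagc
Dusp14: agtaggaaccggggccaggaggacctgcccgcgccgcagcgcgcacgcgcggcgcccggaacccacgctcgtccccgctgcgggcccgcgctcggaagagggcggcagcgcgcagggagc

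The Dusp5 stretch held 2 CArG boxes side by side, at bases -82 to -73 and -72 to -63 from the start. Egr2 held a box at -72 to -63 in the window shown and another in 3 further annotated windows that overlap one another. Counted over both strands of the 250 bases upstream, the box stood in 5 of the 35 windows of members (14.3%), all of them of Dusp5 or Egr2, against 1.47% of 32851 windows of all genes. The 3 overlapping Egr2 windows hold the same box, so the windows are not independent. By gene, 2 of the 27 members with a window had a box, and the share by gene over all genes was not counted. A CRE (TGACGTCA) was in 3 windows (8.57%), those of Dusp1, Dusp8 and Maff, against 1.55% of all, and the Egr motif GCGNGGGCG was in 5 (14.3%), those of Dusp2, Dusp16, Fosb, Fosl2 and Maff, against 4.7%. The AP-1 motif TGANTCA, the ETS motif CCGGAAGT and the vitamin D DR3 element were in none of the 35, against 6.75%, 2.88% and 0.0396% of all windows. These are matches of letters in a short window and were set against no measurement of binding.

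Of the 33 members tested, 7 differed between 25(OH)D and control at an adjusted p under 0.05 (edgeR's quasi-likelihood test, Benjamini-Hochberg over all genes), 6 of them higher and 1 lower. The share was 21.2%, where 8.68% of all 14394 genes tested differed (4.76% higher and 3.93% lower). The members were chosen by name with earlier results of these data known, so no share of members given here tests for an excess. The immediate-early genes Phlda1, Ier5, Ier2, Egr3 and Egr1 and the phosphatase gene Dusp5 rose, and the phosphatase gene Dusp14 fell. Fos, Jun, Myc, Dusp6, Dusp4, Dusp1 and the Sprouty genes, which include the best known reporters of ERK activity, did not pass the test. With ZK191784 beside 25(OH)D, Dusp5, Egr1 and Phlda1 were lower and Dusp14 and Ier3 higher than with 25(OH)D alone, and with added BGP no member passed. In bulk RNA, fewer cells of a type and less RNA per cell cannot be told apart.

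**Figure D1:**
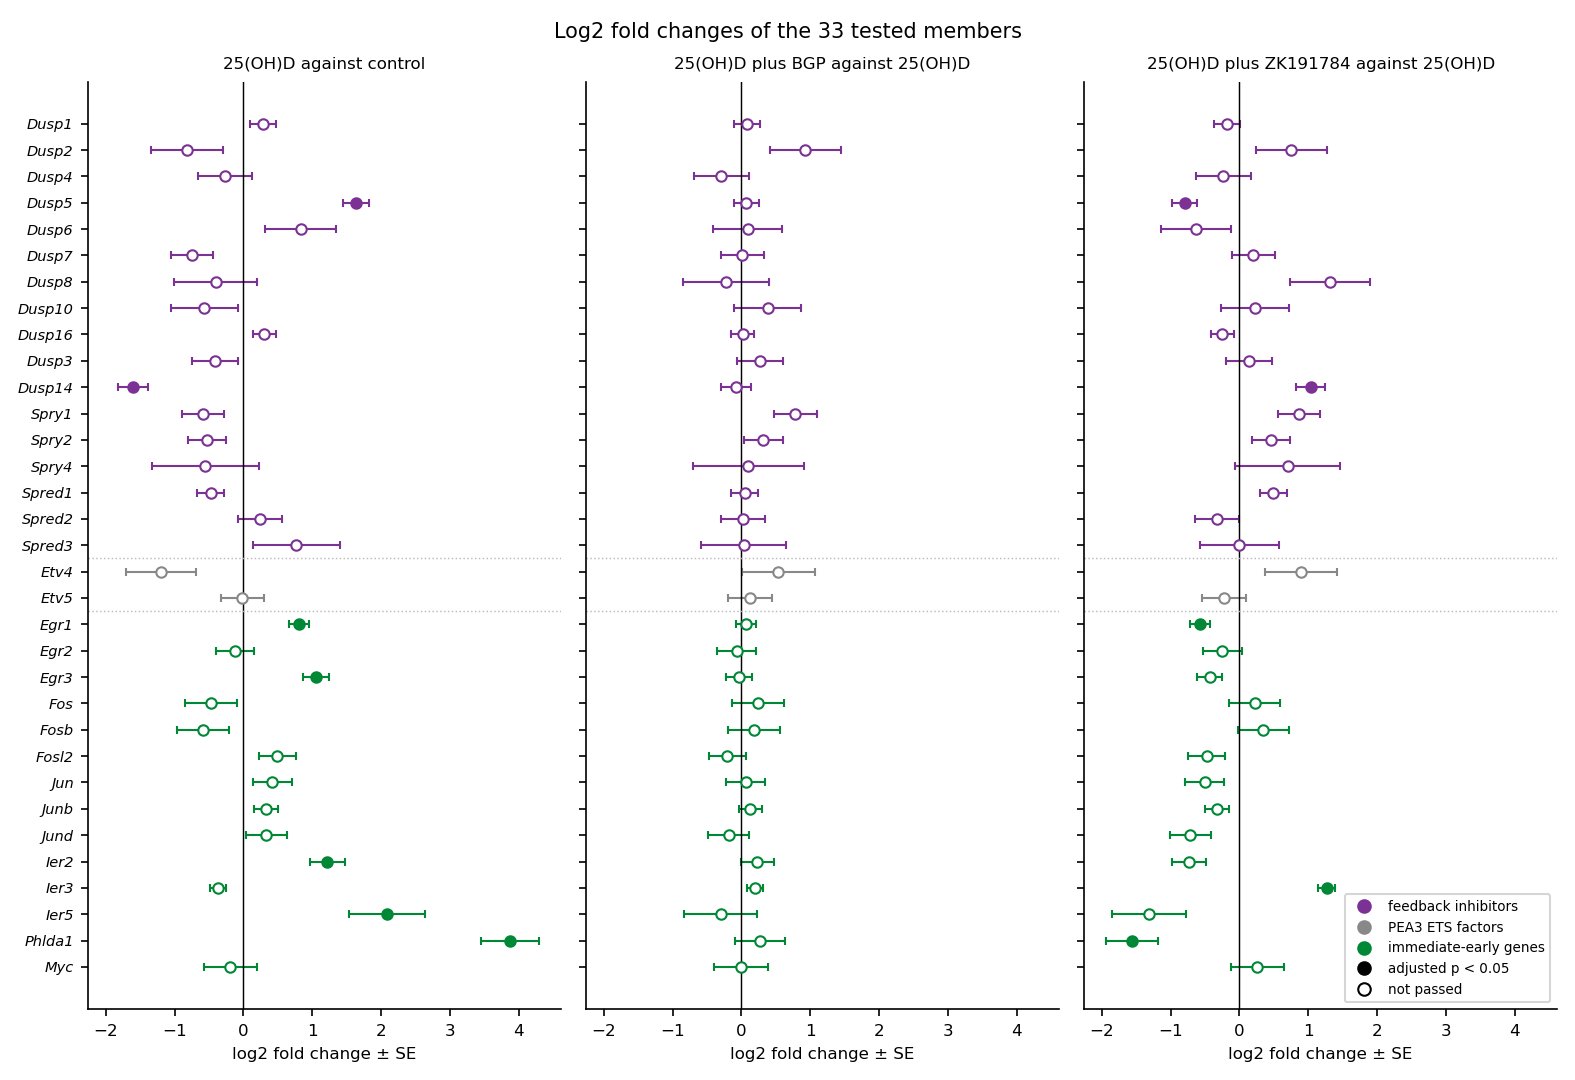
Log2 fold changes (x axis, bars ± 1 SE from edgeR) of the 33 tested members in 3 comparisons of 3 libraries a group; filled points have an adjusted p under 0.05 and colours give the class. In the left panel Phlda1 lies farthest to the right at 3.88 and Dusp14 farthest to the left at -1.60, the middle panel has no filled point, and in the right panel Ier3 is highest among the filled points at 1.27.

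Dusp5 is the inducible nuclear phosphatase that acts on ERK alone. Its level was 15.1, 13.7 and 13.3 CPM in the 3 control libraries, 51.1, 43.4 and 37.0 CPM with 25(OH)D, 40.4, 48.4 and 49.2 CPM with added BGP, and 25.0, 21.9 and 28.7 CPM with ZK191784. The control and ZK191784 libraries overlapped with no other group, whereas the 25(OH)D libraries with and without added BGP overlapped. The difference between 25(OH)D and control was 1.64 ± 0.19 (log2 fold change ± SE, n = 3 and 3; edgeR adjusted p = 0.00011), a 3.12-fold rise. It fell by 0.80 ± 0.18 on the log2 scale with ZK191784 against 25(OH)D alone (edgeR adjusted p = 0.0292). Against control, the ZK191784 group was higher by 0.84 ± 0.19, which did not pass (edgeR adjusted p = 0.0754).

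The 3 other inducible nuclear phosphatase genes did not pass in either comparison. Dusp1, which acts on p38, JNK and ERK, was at 152, 105 and 88.0 CPM in control, 159, 133 and 130 CPM with 25(OH)D, 153, 152 and 142 CPM with added BGP and 110, 124 and 138 CPM with ZK191784. The control libraries overlapped with every other group, while those with added BGP were all above those with ZK191784. The 25(OH)D to control difference was 0.29 ± 0.19 (edgeR adjusted p = 0.463). Dusp4, a relative of Dusp1 that also acts on ERK, was at 16.8, 16.4 and 9.04 CPM in control, 6.69, 8.68 and 19.8 CPM with 25(OH)D, 10.7, 7.07 and 11.0 CPM with added BGP and 8.80, 8.92 and 12.2 CPM with ZK191784. Library 3 of the 25(OH)D group was above all others and libraries 1 and 2 were below all controls, so the difference of -0.27 ± 0.40 (edgeR adjusted p = 0.765) averages values on both sides. Dusp2, a phosphatase of immune cells, stayed at or below 5.04 CPM in every library.

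Dusp6, the cytoplasmic phosphatase of ERK and its most used feedback reporter, was at 46.3, 30.8 and 81.6 CPM in control, 158, 78.6 and 45.7 CPM with 25(OH)D, 45.7, 163 and 91.0 CPM with added BGP and 76.0, 60.8 and 46.1 CPM with ZK191784. Each group had a library between 45.7 and 46.3 CPM, and the ranges overlapped throughout. The 25(OH)D to control difference was 0.83 ± 0.51 (edgeR adjusted p = 0.428), with a 95% interval from -0.28 to 1.94. Its paralog Dusp7 had a difference of -0.75 ± 0.31 (edgeR adjusted p = 0.183). Among the phosphatases of JNK and p38, the differences were -0.40 for Dusp8, -0.57 for Dusp10 and 0.30 for Dusp16, and none passed.

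Dusp14 encodes a small atypical phosphatase that lacks the ERK-binding domain of the larger ones and acts on kinases of the MAP kinase and T cell receptor pathways. It was at 81.3, 91.5 and 146 CPM in control, 37.7, 39.1 and 28.3 CPM with 25(OH)D, 32.3, 34.3 and 33.2 CPM with added BGP and 75.8, 72.6 and 67.2 CPM with ZK191784. All 6 libraries of 25(OH)D with or without added BGP were below the 3 with ZK191784, and those were below the 3 controls. Dusp14 fell by 1.60 ± 0.22 on the log2 scale with 25(OH)D (edgeR adjusted p = 0.000415), which is 3.03-fold lower. With ZK191784 it was higher than with 25(OH)D alone by 1.04 ± 0.21 (edgeR adjusted p = 0.0169) and differed from control by -0.56 ± 0.21 (edgeR adjusted p = 0.505). Dusp3, the other atypical member, had a difference of -0.41 ± 0.33 and did not pass.

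The Sprouty genes, membrane-bound inhibitors of Ras activation, had lower means with 25(OH)D than in control, and none passed the test. Spry1 was at 5.76, 4.64 and 7.14 CPM in control, 4.81, 3.38 and 3.43 CPM with 25(OH)D, 5.61, 6.85 and 7.52 CPM with added BGP and 8.39, 6.03 and 6.74 CPM with ZK191784. Only 25(OH)D library 1 reached into the control range, and no library of the other treated groups was as low as those of 25(OH)D alone. The difference was -0.59 ± 0.31 from control (edgeR adjusted p = 0.336) and 0.86 ± 0.31 for ZK191784 against 25(OH)D (edgeR adjusted p = 0.212). Spry2 was at 16.1, 9.48 and 20.0 CPM in control, 10.2, 10.4 and 10.8 CPM with 25(OH)D, 14.9, 13.1 and 11.4 CPM with added BGP and 12.7, 16.6 and 13.7 CPM with ZK191784. Its 25(OH)D libraries were all above control library 2 and below the other controls, with a difference of -0.53 ± 0.28 (edgeR adjusted p = 0.324). Spry4 was at 2.40, 2.53 and 1.19 CPM in control, 0.535, 0.482 and 3.17 CPM with 25(OH)D, 2.52, 1.71 and 0.386 CPM with added BGP and 1.84, 1.69 and 3.26 CPM with ZK191784. At 2 to 15 counts a library its difference of -0.55 ± 0.78 (edgeR adjusted p = 0.75) could not be resolved at this depth. The Spred genes, which recruit the Ras inhibitor neurofibromin, had differences of -0.47 (Spred1), 0.24 (Spred2) and 0.77 (Spred3), and none passed.

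The PEA3 factors are ETS transcription factors whose transcription commonly follows ERK activity. Etv4 was at 3.60, 4.43 and 3.33 CPM in control, 0.802, 0.964 and 3.17 CPM with 25(OH)D, 2.24, 3.00 and 1.93 CPM with added BGP and 3.89, 3.13 and 2.17 CPM with ZK191784. All 25(OH)D libraries were below all controls, library 3 by little, and the difference of -1.20 ± 0.52 did not pass (edgeR adjusted p = 0.216); without 25(OH)D library 3 it was -2.06 and passed (edgeR adjusted p = 0.0333). Etv5 was at 21.1, 12.2 and 10.9 CPM in control, 19.8, 11.3 and 12.7 CPM with 25(OH)D, 12.3, 14.8 and 20.4 CPM with added BGP and 10.9, 13.3 and 13.3 CPM with ZK191784, with 1 high library in each of the first 3 groups. Its difference was -0.02 ± 0.32 (edgeR adjusted p = 0.986).

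Etv1 was too rare for the test. The control libraries held 8, 3 and 12 counts of it, those of 25(OH)D alone 1, 0 and 2, those with added BGP 2, 6 and 2 and those with ZK191784 3, 1 and 5. Each 25(OH)D library was below each control library, with 3 counts in all against 23, a depth-adjusted ratio of 0.147 (95% exact counting interval 0.0282 to 0.485). The two-sided exact permutation test over libraries gave p = 0.1, the smallest that 3 against 3 can give. The other rare members, the Fos-family gene Fosl1 and the small Maf gene Maff, had 4 against 3 and 21 against 21 counts in the same comparison.

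Among the immediate-early genes, Egr1 and Egr3, zinc-finger factors of the Egr family, rose together. Egr1 was at 127, 142 and 132 CPM in control, 250, 254 and 200 CPM with 25(OH)D, 222, 279 and 237 CPM with added BGP and 174, 151 and 146 CPM with ZK191784. All control libraries were below all ZK191784 libraries, and these were below all libraries of 25(OH)D alone or with BGP. Egr1 was 1.75-fold higher with 25(OH)D (0.81 ± 0.15, edgeR adjusted p = 0.00322) and fell by 0.58 ± 0.15 on the log2 scale with ZK191784 against 25(OH)D (edgeR adjusted p = 0.0489). Egr3 was at 24.2, 23.4 and 23.3 CPM in control, 54.0, 56.2 and 37.8 CPM with 25(OH)D, 43.5, 55.2 and 45.9 CPM with added BGP and 40.7, 31.3 and 37.4 CPM with ZK191784. The controls were below every treated library, and 1 library of 25(OH)D lay within the ZK191784 range. The rise with 25(OH)D was 1.06 ± 0.19 (edgeR adjusted p = 0.00321), while the difference of -0.43 ± 0.19 with ZK191784 did not pass (edgeR adjusted p = 0.379). Egr2 ranged from 9.36 to 17.7 CPM over all 12 libraries, with a difference of -0.12 ± 0.28 between 25(OH)D and control.

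**Figure D2:**
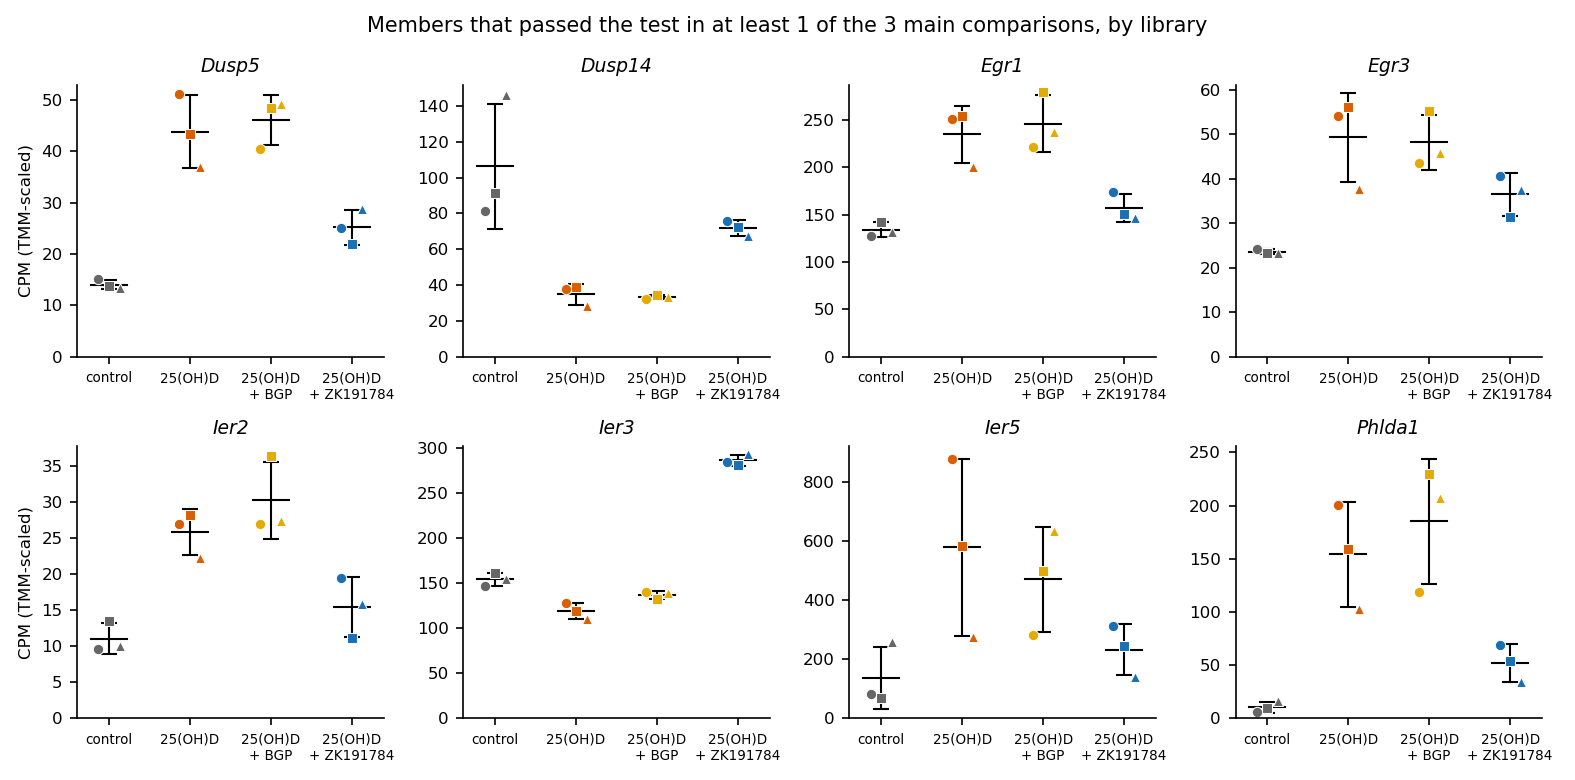
Level in CPM (y axes from 0, each panel with its own scale) of the 8 members that passed the test in at least 1 of the 3 main comparisons, by library; circles, squares and triangles are libraries 1, 2 and 3, the long line is the mean and the bars are ± 1 SD (n = 3). The ZK191784 libraries of Dusp5, Egr1 and Dusp14 sit between control and 25(OH)D, while those of Ier3, from 282 to 294 CPM, sit above all the others.

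Phlda1, which encodes a small protein with a pleckstrin-homology-like domain and is transcribed downstream of ERK, was at 5.51, 9.91 and 15.9 CPM in control, 200, 159 and 103 CPM with 25(OH)D, 118, 230 and 208 CPM with added BGP and 68.8, 53.5 and 33.9 CPM with ZK191784. No library of control or ZK191784 reached those of another group. The 14.7-fold rise with 25(OH)D (3.88 ± 0.43, edgeR adjusted p = 8.12e-05) was the largest among the tested members in this comparison. With ZK191784 it was lower than with 25(OH)D alone by 2.96-fold (-1.56 ± 0.38, edgeR adjusted p = 0.04) and still 4.97-fold higher than in control (2.31 ± 0.41, edgeR adjusted p = 0.0215).

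The Ier genes are short response genes named for their early induction by growth factors. Ier2, a nuclear protein, was at 9.59, 13.5 and 9.99 CPM in control, 27.0, 28.2 and 22.2 CPM with 25(OH)D, 26.9, 36.4 and 27.4 CPM with added BGP and 19.5, 11.1 and 15.9 CPM with ZK191784. It was 2.33-fold higher with 25(OH)D (1.22 ± 0.25, edgeR adjusted p = 0.00804), with no overlap between those groups, and its difference of -0.73 ± 0.25 with ZK191784 did not pass (edgeR adjusted p = 0.175).

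Ier5, a regulator of the heat shock factor HSF1, was at 82.0, 68.7 and 257 CPM in control, 877, 584 and 277 CPM with 25(OH)D, 281, 498 and 633 CPM with added BGP and 311, 246 and 140 CPM with ZK191784. The spread within each group was large: control library 3 was close to the lowest library of 25(OH)D, though below it. The 25(OH)D to control difference of 2.09 ± 0.55 passed (edgeR adjusted p = 0.0334), and that of -1.32 ± 0.54 with ZK191784 did not (edgeR adjusted p = 0.333). Leaving out libraries singly ended the call for the first and second control (edgeR adjusted p = 0.141 and 0.14) and for the first and second library of 25(OH)D (0.131 and 0.0846), as did using no low-count filter (0.242) or only the 2 groups compared (0.0933).

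Ier3, which lengthens ERK activity by acting on the phosphatase that removes it and protects cells from death, was highest with ZK191784. It was at 147, 161 and 155 CPM in control, 129, 119 and 110 CPM with 25(OH)D, 140, 132 and 139 CPM with added BGP and 285, 282 and 294 CPM with ZK191784. The ZK191784 libraries were above all others, and the 25(OH)D libraries were below all controls. Its difference between 25(OH)D and control was -0.37 ± 0.12 (edgeR adjusted p = 0.0703; DESeq2 adjusted p = 0.0467). With ZK191784 it rose by 1.27 ± 0.12 over 25(OH)D alone (2.41-fold, edgeR adjusted p = 6.21e-05) and by 0.89 ± 0.12 over control (1.86-fold, edgeR adjusted p = 0.00302).

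Fos, Jun and Myc, the classical immediate-early genes, had a wide spread within each group. Fos was at 118, 87.3 and 58.5 CPM in control, 38.2, 55.5 and 96.4 CPM with 25(OH)D, 107, 49.0 and 68.3 CPM with added BGP and 54.3, 72.6 and 94.6 CPM with ZK191784. Its difference of -0.47 ± 0.38 did not pass (edgeR adjusted p = 0.556). Jun was at 56.4, 47.2 and 25.7 CPM in control, 52.4, 51.4 and 69.5 CPM with 25(OH)D, 77.7, 49.0 and 54.4 CPM with added BGP and 33.4, 36.9 and 51.8 CPM with ZK191784. All 4 groups overlapped, and the difference was 0.42 ± 0.29 (edgeR adjusted p = 0.484). Myc was at 64.7, 40.0 and 26.6 CPM in control, 26.7, 28.7 and 60.0 CPM with 25(OH)D, 51.9, 29.1 and 34.1 CPM with added BGP and 34.2, 42.7 and 61.5 CPM with ZK191784. All 4 groups covered nearly the same range, with a difference of -0.19 ± 0.39 (edgeR adjusted p = 0.84). The other AP-1 members had differences of -0.59 (Fosb), 0.49 (Fosl2), 0.33 (Junb) and 0.33 (Jund), and none passed.

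Whether feedback inhibitors and immediate-early genes moved alike was described class by class. With 25(OH)D, 5 of the 14 immediate-early genes tested were higher and none lower, while 1 of the 17 feedback inhibitors was higher and 1 lower. These shares were 35.7% and 11.8%, where 8.68% of all genes were called (4.76% higher and 3.93% lower), so that of the feedback inhibitors was near the background. The difference between the classes was not tested. The median log2 fold change was 0.38 over the immediate-early genes and -0.41 over the feedback inhibitors, beside -0.05 over all genes tested. With ZK191784 against 25(OH)D the medians were -0.46 and 0.20, beside 0.02. These comparisons share the 25(OH)D libraries, so the opposite signs of their medians are not independent.

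The mean log2 CPM of the 14 immediate-early genes was 5.50 ± 0.09 in control (SD, n = 3), 6.15 ± 0.02 with 25(OH)D, 6.21 ± 0.008 with added BGP and 5.83 ± 0.03 with ZK191784. The libraries of the 4 groups did not overlap, and those of 25(OH)D with and without added BGP lay closest. The mean of the 17 feedback inhibitors was 3.82 ± 0.10, 3.65 ± 0.15, 3.81 ± 0.09 and 3.88 ± 0.09 in the same order. The libraries overlapped, except that those of 25(OH)D alone were all below those with ZK191784. Feedback minus immediate-early mean was -1.65, -1.75 and -1.63 in the control libraries, -2.48, -2.65 and -2.38 with 25(OH)D, -2.34, -2.37 and -2.49 with added BGP and -2.02, -1.92 and -1.89 with ZK191784. The control, ZK191784 and remaining libraries formed 3 ranges that did not overlap. The change of this difference from control to 25(OH)D was -0.82, and it was -0.68 with the feedback class limited to inhibitors directed at ERK and -0.94 without Jund, Myc and Fosl2. The 5 immediate-early genes called with 25(OH)D had log2 fold changes of 0.81 to 3.88, and the 9 not called -0.59 to 0.49. Of the 14, 5 had a difference below 0. The immediate-early mean was not recomputed without the called genes, so it does not show a shift of the whole class. No p is given for a score over chosen genes.

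**Figure D3:**
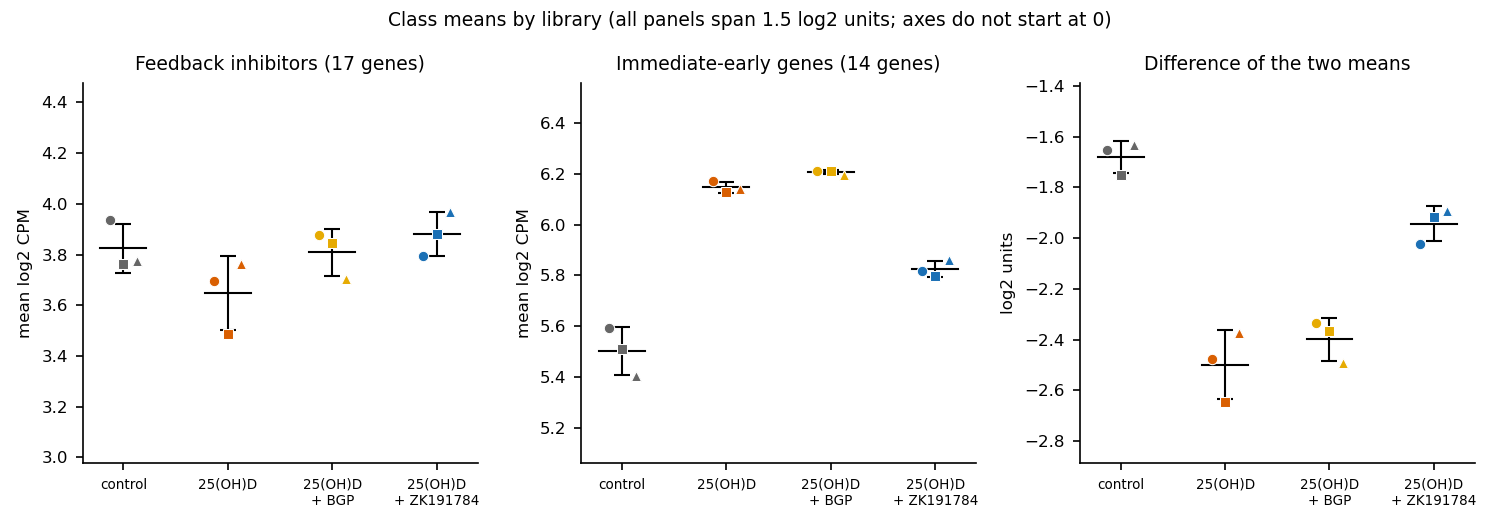
Mean log2 CPM of the 17 feedback inhibitors (left), of the 14 tested immediate-early genes (middle) and their difference (right) in each library, all on axes spanning the same number of log2 units and not starting at 0; circles, squares and triangles are libraries 1, 2 and 3, long lines are means and bars ± 1 SD (n = 3). The immediate-early mean is lowest in control, between 5.41 and 5.59. The feedback means overlap, except between 25(OH)D alone and ZK191784. The difference is lowest with 25(OH)D, where it reaches -2.65.

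No member passed the test when BGP was added to 25(OH)D. By edgeR 0 of 33 were called, where 0% of all 14394 genes were, and DESeq2 called 0 members too. At an unadjusted p under 0.05 there were 268 genes and 1 member, Spry1, whose difference was 0.79 ± 0.31 (edgeR adjusted p = 1). Differences of members ranged from -0.30 to 0.93, with a median of 0.07 in both classes, beside -0.02 over all genes. The intervals were narrow for some members, from -0.32 to 0.46 for Dusp5 and from -0.25 to 0.38 for Egr1, and wide for others, from -1.45 to 0.85 for Ier5. Against control, the group with added BGP had 6 members called (5 higher and 1 lower, 18.2%, where 8.25% of all genes were called, 3.90% higher and 4.35% lower): Phlda1 (4.14), Dusp5 (1.71), Ier2 (1.45), Egr3 (1.03), Egr1 (0.88) and Dusp14 (-1.68). These log2 fold changes share the control libraries with those of 25(OH)D alone, which were 3.88, 1.64, 1.22, 1.06, 0.81 and -1.60. Ier5 did not pass there (1.79 ± 0.55, edgeR adjusted p = 0.0696).

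With ZK191784 against 25(OH)D alone, 5 of the 33 members passed (15.2%, where 3.53% of all genes did), 2 of them higher and 3 lower (1.42% and 2.11% of all genes). Of the 5 calls only that of Ier3 was held when any single library was left out. The count fell to 1 without 25(OH)D library 1, ZK191784 library 1 or ZK191784 library 2. It fell to 2 without 25(OH)D library 2 or ZK191784 library 3. In the order named, all genes called fell too, from 508 to 328, 302, 269, 283 and 319. Adjusted p over all alternatives ranged from 0.000171 to 0.224 for Egr1, from 0.000606 to 0.166 for Dusp5, from 1.35e-10 to 0.172 for Phlda1 and from 5.45e-07 to 0.0774 for Dusp14, with the sign held in each. Against 25(OH)D plus BGP, which shares no library with 25(OH)D alone, the same 5 members were called (3.25% of all genes were, 1.60% higher and 1.65% lower), with log2 differences of 1.06 (Ier3), 1.11 (Dusp14), -1.83 (Phlda1), -0.87 (Dusp5) and -0.65 (Egr1). That comparison reuses the ZK191784 libraries. Its count fell to 1 without BGP library 3 or ZK191784 library 2. It fell to 2 without BGP library 2 and to 3 without ZK191784 library 1 or 3. All genes called fell in that order from 468 to 255, 234, 334, 258 and 295. Against control, 2 members were called with ZK191784, Ier3 and Phlda1 (6.06%, where 0.723% of all genes were). The call of Phlda1 was lost without control library 1 or 2 or ZK191784 library 1 or 2, with an edgeR adjusted p of up to 0.123.

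The wider pathway was read from lists of genes chosen for their roles, whose shares called with 25(OH)D against control stand beside 8.68% of all genes tested. The lists too were chosen with earlier results of these data known, so their shares do not test for an excess either. Upstream, 2 of 12 tested growth factor receptors (16.7%) rose with 25(OH)D and none fell, Ddr2, a collagen receptor (1.26 ± 0.13, edgeR adjusted p = 4.32e-05), and Igf1r (0.72 ± 0.20, edgeR adjusted p = 0.037). The call of Igf1r was lost when either of the first 2 libraries of control (0.148 and 0.103) or of 25(OH)D (0.117 and 0.139) was left out, and with only the 2 groups compared (0.0699). Of 7 tested ligands 1 was called (14.3%), Pdgfc, which fell by 1.40 ± 0.23 on the log2 scale (edgeR adjusted p = 0.00189). Of 25 genes of the cascade from Grb2 to the ERK-activated kinases, Ksr1, the scaffold that holds Raf, MEK and ERK together, rose and the adaptor gene Grb2 fell, a share of 8% that is near the background. The 17 tested kinases of the JNK and p38 branches had no call by edgeR, with 4 at an unadjusted p under 0.05, where 2821 of all 14394 genes were.

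Ksr1 was at 34.8, 27.2 and 29.3 CPM in control, 215, 205 and 202 CPM with 25(OH)D, 168, 127 and 181 CPM with added BGP and 67.4, 68.0 and 78.7 CPM with ZK191784. No library of control or of ZK191784 overlapped with another group. The rise with 25(OH)D was 6.83-fold (2.77 ± 0.17, edgeR adjusted p = 6.31e-07). With ZK191784 it was 2.91-fold lower than with 25(OH)D alone (-1.54 ± 0.16, edgeR adjusted p = 0.000152) and 2.35-fold higher than in control (1.23 ± 0.16, edgeR adjusted p = 0.00334). Grb2 was 1.60-fold lower with 25(OH)D (-0.68 ± 0.13, edgeR adjusted p = 0.00543).

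Downstream, 1 of 12 tested transcription factors that ERK or SRF signalling acts on rose (8.33%), the SRF coactivator gene Mrtfa (1.24 ± 0.27, edgeR adjusted p = 0.0121), a call lost without 25(OH)D library 1 (0.0589). Of 25 tested negative regulators outside the member list 3 were called (12%): Errfi1, an inhibitor of the EGF receptor, rose 4.38-fold (2.13 ± 0.32, edgeR adjusted p = 0.000992), while Ptpre (-0.72) and Rasa2 (-0.84) fell with calls that were lost when single libraries were left out. Among 14 tested ERK output genes 2 were called (14.3%): Spsb1 (1.86 ± 0.20, edgeR adjusted p = 7.06e-05) and the ephrin receptor gene Epha4 (2.29 ± 0.28, edgeR adjusted p = 0.00018) rose. Of 11 tested AP-1 and Maf relatives 2 were called (18.2%): Jdp2 (0.92) and Mafg (0.85) rose, and the call of Mafg was lost when either of the first 2 libraries of control or of 25(OH)D was left out.

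Of 40 other immediate-early and early-response genes, 6 rose and 3 fell (22.5% called, where 8.68% of all genes were). The 4 with the smallest p were Klf4, a Krüppel-like factor, which was 7.12-fold lower (-2.83 ± 0.18, edgeR adjusted p = 7.17e-07), Cebpb, 3.40-fold higher (1.77 ± 0.14), Gadd45g, 6.14-fold lower (-2.62 ± 0.20), and Trib1, a pseudokinase gene, 6.75-fold higher (2.75 ± 0.23). With ZK191784 against 25(OH)D, 7 of the 40 were called, 3 higher and 4 lower (17.5%, where 3.53% of all genes were), and these 4 genes had log2 differences of 0.95 (Klf4), -1.10 (Cebpb), 1.61 (Gadd45g) and -1.59 (Trib1). In the same comparison Ddr2 (-1.05), Epha4 (-2.24) and Spsb1 (-1.10) were lower and Pdgfc (1.20) higher. Other genes named above were not called there: Errfi1 (-0.65), Mrtfa (-0.82), Igf1r (-0.58), Jdp2 (-0.605), Mafg (-0.41), Ptpre (0.60), Rasa2 (0.465) and Grb2 (0.16). The call of Pdgfc was lost without 25(OH)D library 2 (0.0731) or ZK191784 library 2 (0.063). All these genes were picked on 25(OH)D against control, which shares the 25(OH)D libraries, so opposite signs are not independent. With ZK191784 against 25(OH)D plus BGP, Klf4 (0.88), Cebpb (-0.78), Gadd45g (1.41) and Trib1 (-1.34) were called, Klf4 not under every alternative. Pdgfc (0.55, edgeR adjusted p = 0.347) was not called there.

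**Figure D4:**
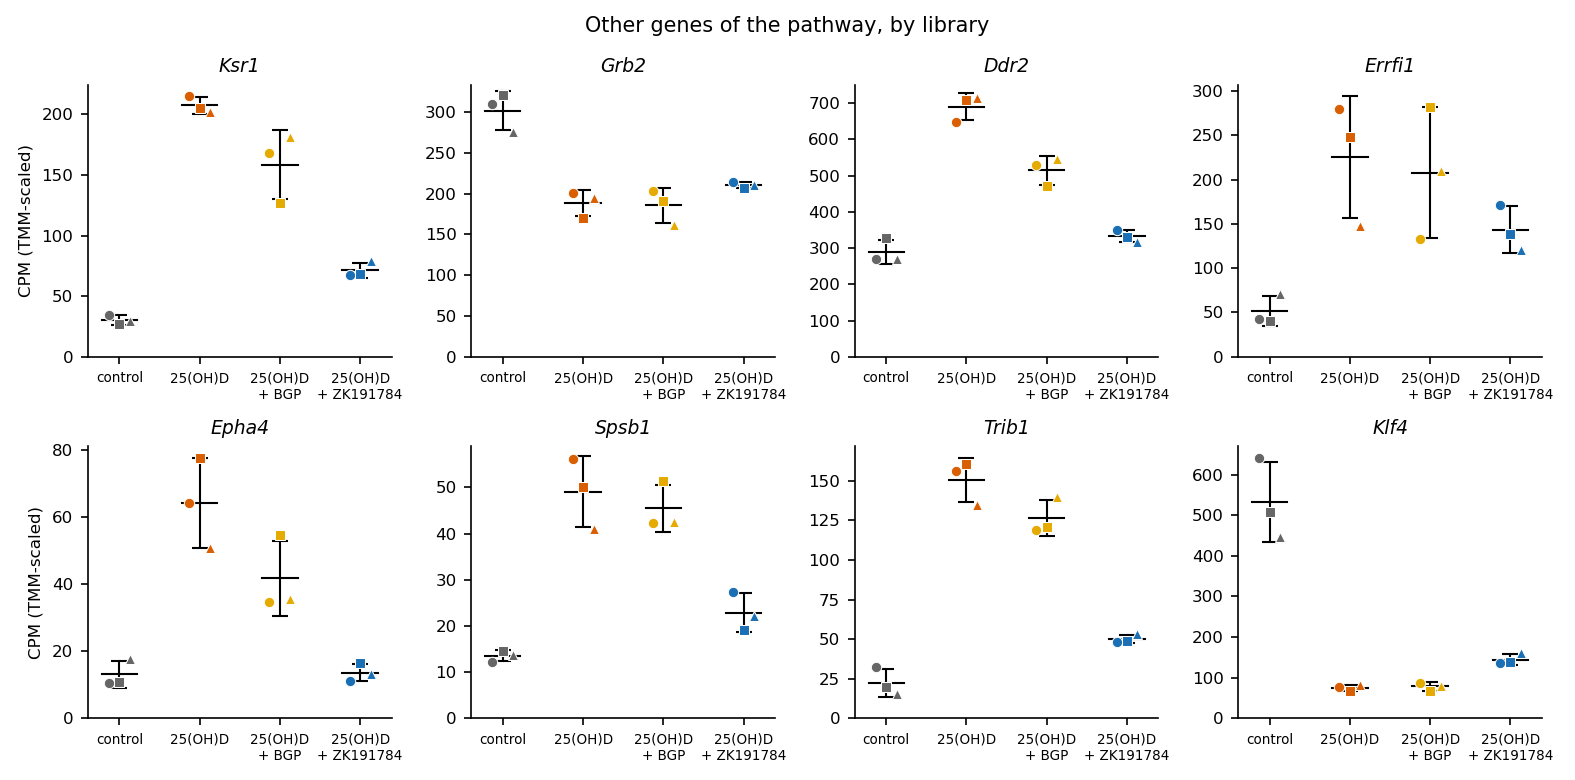
Level in CPM (y axes from 0, each panel with its own scale) of 8 genes of the wider pathway by library; circles, squares and triangles are libraries 1, 2 and 3, long lines are means and bars ± 1 SD (n = 3). Ksr1, Ddr2, Epha4, Spsb1, Errfi1 and Trib1 are higher with 25(OH)D than in control, Grb2 and Klf4 lower, and Ksr1 with ZK191784, at 67.4 to 78.7 CPM, lies between control and 25(OH)D.

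Libraries of a group also differed from each other in a way that reached the members. The log2 ratio of counts in 97 ribosomal-protein genes to counts in 27238 pseudogene and Gm entries ran from -1.86 to -0.52 over the 12 libraries, while its group means were -1.43 (control), -1.20 (25(OH)D), -1.15 (added BGP) and -1.25 (ZK191784). Within groups, 7 of 33 members rose and 7 fell with this ratio at an adjusted p under 0.05 by edgeR (21.2% each way), where 27.8% of all genes rose and 23.6% fell (51.5% in either direction). Dusp6 had the steepest positive slope at 1.23 ± 0.10 log2 units per unit of ratio, followed by Ier5 at 1.22 ± 0.20 and Phlda1 at 0.82 ± 0.11. Dusp10 (-1.08 ± 0.17), Fos (-0.88 ± 0.10) and Myc (-0.83 ± 0.13) fell with it. Of the other members called in the treatment comparisons, Dusp14 rose with it (0.37 ± 0.10, edgeR adjusted p = 0.00271), and Dusp5, Egr1, Egr3, Ier2 and Ier3 had slopes between 0.02 and 0.21 that did not pass.

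**Figure D5:**
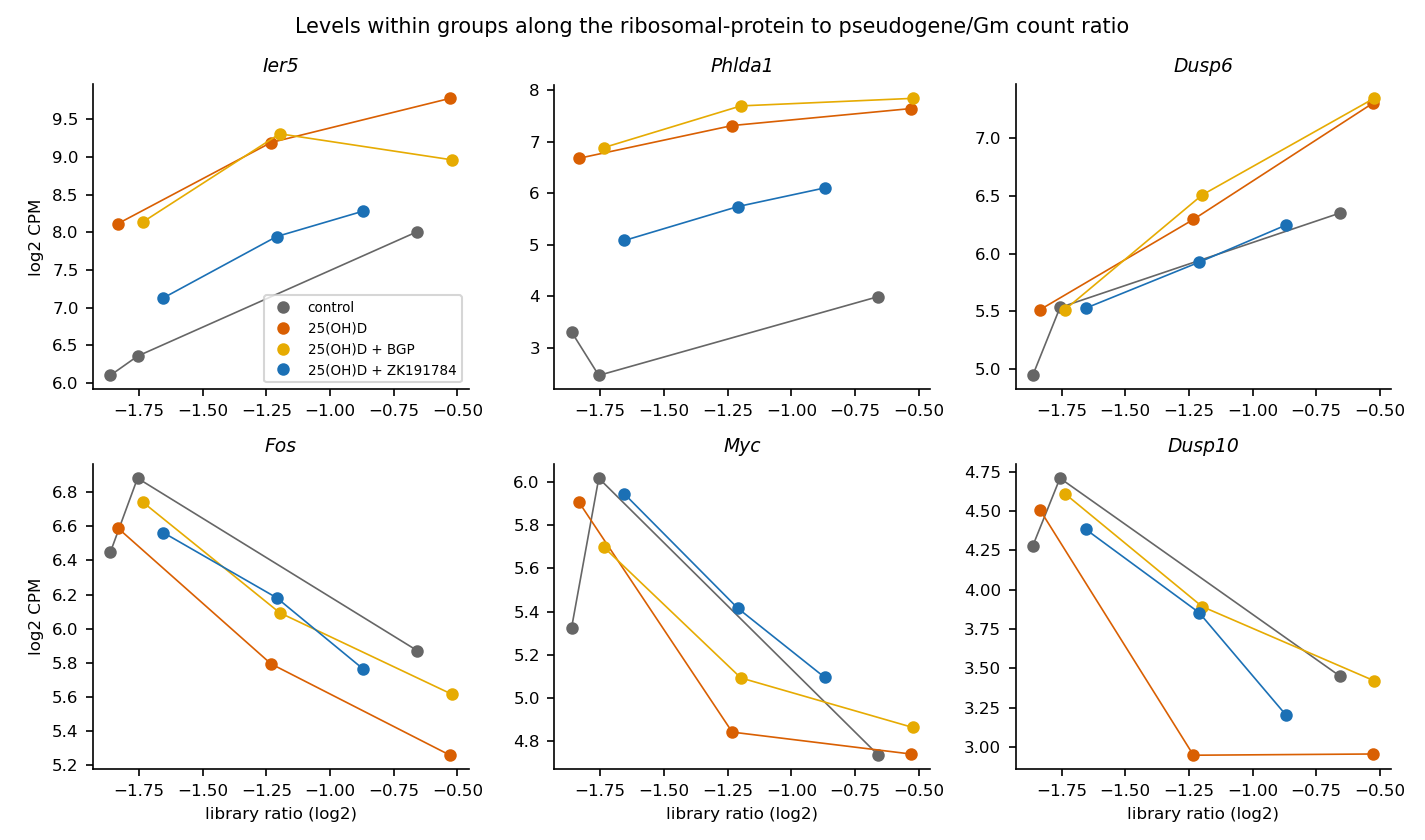
Log2 CPM of 6 members (y axes) against the log2 ratio of ribosomal-protein to pseudogene and Gm counts of each library (x axes), with the 3 libraries of a group joined by a line. Ier5, Phlda1 and Dusp6 are higher in libraries with a high ratio and Fos, Myc and Dusp10 lower, and in the Phlda1 panel the control line lies below all other groups at every ratio.

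With this ratio as a covariate in the edgeR fit, 14 members differed between 25(OH)D and control in place of 7. Ier3, Fosl2, Spred1, Dusp6, Jund, Jun and Dusp7 were added and no call was lost, with log2 differences of 0.49 for Dusp6 (edgeR adjusted p = 0.0107) and 0.59 for Jun (edgeR adjusted p = 0.004). Over all genes tested, 2856 were called with the covariate in place of 1250. What the ratio stands for was not tested.

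The osteoblast identity of the cells was checked on 14 markers, all of which were tested. Their summed level was 125200 to 139500 CPM in control, 21400 to 24190 CPM with 25(OH)D, 18040 to 21490 CPM with added BGP and 63810 to 74740 CPM with ZK191784. The members were thus compared between libraries with unequal shares of transcripts of these 14 genes. Sparc weighed most in the sum, with a mean of 71820 CPM in control and 12550 CPM with 25(OH)D. Gene by gene, 10 of the 14 were lower with 25(OH)D than in control, 3 were not called and Alpl, the alkaline phosphatase of mineralising cells, was 1.91-fold higher (edgeR adjusted p = 0.0138). With added BGP against control 10 were lower and 2 higher, Alpl and the osteocyte gene Dmp1 (4.02-fold, edgeR adjusted p = 0.0187). With ZK191784 against 25(OH)D 7 were higher and none lower. Their part in the members' differences was not tested. Single markers of 2 other lineages were called too. The cartilage collagen gene Col2a1, 1 of 2 chondrocyte markers tested of 6, was 25.7-fold lower with 25(OH)D than in control (edgeR adjusted p = 0.000131) and 16.2-fold higher with ZK191784 than with 25(OH)D alone (edgeR adjusted p = 0.00118), and the other, Sox9, was not called. The untested chondrocyte marker Matn3 went the other way, with 0, 0 and 4 counts in control and 7, 9 and 6 with 25(OH)D. Summed chondrocyte markers ranged from 100.2 to 244.8 CPM in control and 69.2 to 153.5 CPM with 25(OH)D. They ranged from 65.4 to 119.7 CPM with added BGP and 86.5 to 183.2 CPM with ZK191784. The fatty-acid-binding gene Fabp4, 1 of 2 adipocyte markers tested of 6, was 6.57-fold lower with 25(OH)D than in control (edgeR adjusted p = 0.0222). It had 22, 20 and 34 counts in control and 8, 1 and 1 with 25(OH)D. The untested Adipoq had 1, 0 and 0 counts in control and 7, 1 and 0 with 25(OH)D. The 6 adipocyte markers summed to 8.43 to 17.8 CPM in control, 1.85 to 9.9 CPM with 25(OH)D, 3.09 to 5.79 CPM with added BGP and 8.26 to 13.5 CPM with ZK191784. Whether the markers of these 2 lineages had a part in the members' differences was not tested. Of 6 haematopoietic markers, 4 were tested and none was called in any comparison by edgeR or had an unadjusted p under 0.05. Ptprc, a leukocyte gene, was nevertheless counted in every library at 125 to 327 CPM, and Cd68 at 20.7 to 65.7 CPM. The rest of these markers were scarce: Adgre1 had 1 to 17 counts a library, Csf1r 3 to 11, Cd3e 5 to 32 and Hbb-bs 0 to 1. In each group the library with the most Ptprc (control 1, 25(OH)D 3, added BGP 1 and ZK191784 3) was also the highest in Fos and Myc, and whether these share a source was not tested. Of 5 endothelial markers, Cdh5 had 0 counts in all libraries, whereas Pecam1 had 54 to 207 counts and Kdr 9 to 76, and neither was called in any comparison by edgeR, with 1 of the pair at an unadjusted p under 0.05 for ZK191784 against 25(OH)D.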

How the data were processed

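RNA of 12 libraries, 3 in each of 4 groups, was extracted with TRIzol and sequenced by QuantSeq 3′ mRNA-seq, per the labels' protocols. The values deposited by the authors are raw counts per gene symbol and library. The submitters' processing notes name the mouse build mm39, STAR 2.7.9a, Subread 2.0.3 with its featureCounts, and DESeq2 1.38.2, and do not say what the last was used for. How strand was handled, which annotation was used and how reads were filtered is not given in the sources, so overlapping and antisense genes cannot be told apart.

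Groups were taken from the labels' treatment. The counts were fitted with edgeR 4.0.16 (R 4.3.3, limma 3.58.1): filterByExpr with a minimum count of 10 and a minimum total of 15, which kept 14394 genes holding 99.4% of counts, TMM normalization, robust quasi-likelihood F-tests with 1 coefficient per group over all 12 libraries, and Benjamini-Hochberg adjustment over all genes tested, with calls at an adjusted p under 0.05. The SE of a log2 fold change is its size over the root of its F statistic. CPM are scaled by TMM factors, and class means use log2 CPM with a prior count of 2. Levels are compared between libraries and not between genes. Members below the filter are given as counts with exact counting intervals, which cover counting error only. Scripts were tested on simulated data in which few genes were changed. Of 2-fold changes, 15.6%, 17.2% and 12.1% were called in the 3 main comparisons, and of 4-fold changes 68.4%, 65.3% and 59.8%. A missing call therefore does not mean that a gene was unchanged. Python 3.11.15 with matplotlib 3.10.9 made the figures.

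Members called in any of the 3 main comparisons are given in full, as are Dusp1, Dusp4, Dusp6, Spry1, Spry2, Spry4, Etv4, Etv5, Egr1, Fos, Jun and Myc whatever their result, and, of each pathway list, up to 4 called genes with the smallest p. The members and all lists were chosen with earlier results of these data known. The alternatives were RLE normalization, no low-count filter, a filter of at least 2 CPM in 3 libraries, DESeq2 1.42.0, only the 2 groups compared, the replicate number as a block, the library ratio as a covariate, other class memberships, prior counts of 0.5 and 5, and leaving out each library. Promoter windows are RefSeq's on GRCm38.p6; the counts were made on another build, and no other coordinates are given.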

Additional observations from a re-analysis of the deposited data

How the results depend on the processing

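Each result was recomputed under up to 13 alternatives. Of 779 recomputed values of 60 results on members, 691 kept both direction and side of the threshold, 58 kept the direction but no longer passed, 9 newly passed and 21 changed sign. None of those that changed sign had passed the test. Of 689 recomputed values of 53 results on genes of the pathway lists, 624 kept both and 65 no longer passed. The largest shift in counts came with the library ratio as a covariate: 14 members in place of 7 for 25(OH)D against control, 12 in place of 5 for ZK191784 against 25(OH)D, 13 in place of 6 for added BGP against control, 5 in place of 2 for ZK191784 against control and 13 in place of 5 for ZK191784 against added BGP. All genes called moved too, in the same order from 1250 to 2856, 508 to 1643, 1187 to 2685, 104 to 672 and 468 to 1602. For ZK191784 against 25(OH)D the count was 3 with no low-count filter, beside 609 of all genes. With only the 2 groups compared it was 3, beside 464 of all genes. For ZK191784 against control, only the 2 groups compared gave 1, beside 42 of all genes. The cause was not tested. When single libraries were left out, 6 to 8 members were called for 25(OH)D against control, beside 813 to 1266 of all genes. For added BGP against 25(OH)D it was 0 to 0, beside 0 of all genes. For ZK191784 against 25(OH)D it was 1 to 4, beside 269 to 428. Added BGP against control gave 6 to 7, beside 794 to 1143. ZK191784 against control gave 1 to 2, beside 34 to 119, and ZK191784 against added BGP 1 to 5, beside 234 to 379.

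The replicate numbers did not pair the libraries. Of 18 pairs of libraries with the same number, 4 had deviations from their group means that correlated above 0.1. The range was -0.706 to 0.612, and 2 of 12 libraries correlated best with their own number. Pairs with different numbers ran from -0.671 to 0.668. Control library 3 correlated with 25(OH)D library 1 (0.66), added BGP library 2 (0.634) and ZK191784 library 1 (0.621). Likewise, 25(OH)D library 3 correlated with control library 1 (0.593), added BGP library 1 (0.668) and ZK191784 library 3 (0.612). The first set had the highest ratio of ribosomal-protein to pseudogene and Gm counts in their groups (-0.658, -0.529, -0.523 and -0.869). The second set had the lowest in the treated groups (-1.834, -1.736 and -1.655), while control library 1 was at -1.756 and control library 2 at -1.863. It also had the most Ptprc, Fos and Myc of each group. No block on such sets was fitted, and what else they share was not tested. With the replicate number as a block, members called were 6 for 25(OH)D against control, 0 for added BGP and 1 for ZK191784 against 25(OH)D. They were 6 for added BGP against control, 1 for ZK191784 against control and 2 for ZK191784 against added BGP. Over all genes the counts in that order were 953, 0, 334, 900, 56 and 304. The main fit gave 1250, 0, 508, 1187, 104 and 468.

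The change in feedback minus immediate-early mean from control to 25(OH)D was -0.82. It was -0.677 with inhibitors directed at ERK only, -0.667 with the PEA3 factors counted as immediate-early genes and -0.936 without Jund, Myc and Fosl2. When single libraries were left out it ran from -0.882 to -0.747, and from 0.026 to 0.161 for added BGP and from 0.481 to 0.616 for ZK191784 against 25(OH)D.

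The values that changed sign lay between -0.298 and 0.22 in the full fit. Etv5 in 25(OH)D against control was 0.00 with no low-count filter and 0.004 by DESeq2. With single libraries left out it ran from -0.295 to 0.329, Dusp4 from -0.868 to 0.011 and Myc from -0.655 to 0.201 in that comparison. For added BGP against 25(OH)D the ranges were -0.039 to 0.198 for Dusp5, -0.209 to 0.016 for Dusp14, -0.038 to 0.139 for Egr1, -0.194 to 0.076 for Egr3 and -0.634 to 0.132 for Ier5. For ZK191784 against 25(OH)D they were -0.508 to 0.369 for Dusp4, -0.369 to 0.053 for Etv5 and -0.04 to 0.651 for Fos. Depth limits rare members such as Spry4, with 2 to 15 counts a library, and Etv1, Fosl1 and Maff, which could not be tested by edgeR.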

Other observations

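Of the early-response genes outside the member list, Gadd45a and Gadd45b, stress-response genes, are named here after their values were seen. Gadd45a was at 9.66 ± 5.05 CPM (SD, n = 3) in control and rose 49.7-fold with 25(OH)D (5.63 ± 0.53 on the log2 scale, edgeR adjusted p = 2.53e-05). Gadd45b rose as well (1.51 ± 0.29, edgeR adjusted p = 0.005). With ZK191784 against 25(OH)D alone both fell, Gadd45a by 2.08 ± 0.44 (edgeR adjusted p = 0.0207) and Gadd45b by 1.30 ± 0.29 (edgeR adjusted p = 0.0239). Against control, Gadd45a was still higher with ZK191784 (3.56 ± 0.49, edgeR adjusted p = 0.00464; 0.0512 with no low-count filter), while the difference of Gadd45b was 0.21 ± 0.29 (edgeR adjusted p = 0.998).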
